A study of Danio rerio with 4 samples.

Results

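Wide open chromatin regions that were called in both sorted populations of the zebrafish embryo are described here. Peaks of the 4 peak lists were merged into regions wherever they overlapped by 1 bp or more. A region was kept if it held a peak in all 4 lists and was at least 1000 bp wide from its first to its last called base. Regions that held one of the 500 strongest peaks of every list were left out. The rule kept 849 of 694637 merged regions, which is 0.767% of the 110754 regions called in all 4 lists. Of the 953 shared regions of that width, 104 were left out as among the strongest. Members were thus chosen by measured values, the calls, their width and their rank. The lists came from ATAC-seq of zebrafish embryos that carry Tg(krt4:GFP), a transgene in which a krt4 promoter drives GFP, collected when 4 somites had formed. The 2 GFP-positive libraries are labelled periderm, the outermost epithelial layer, and the 2 GFP-negative libraries, labelled non-periderm, mix all other cells of the same transgenic embryos. All 4 libraries carried the same transgene, no further treatment is given, and each was made from 50000 sorted cells of pooled embryos, taken from 2 independent incrosses.

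In ATAC-seq the Tn5 transposase cuts DNA that is not wrapped around a nucleosome, and short fragments mark such nucleosome-free regions. Most regulatory elements give a narrow opening, flanked by nucleosomes. Active promoters and enhancers that lie close together can give a longer one. Periderm is the embryonic superficial layer that separates the embryo from its surroundings, and krt4 encodes a keratin of that layer. No genome or gene annotation of danRer7, the build of these files, was used here, so the regions carry positions but no gene names or sequences.

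The lists held 190059 to 455867 peaks, and the number of tags per library implied by the values lay between 24915274 and 42446897, with both GFP-negative libraries above both GFP-positive ones. Signal was read from the fold enrichment of a peak, a ratio to the constant background of the same library, and the strength of a region in a library is the highest fold of its peaks there. The 5 elements around cldne, a periderm claudin gene, that the study picked from these samples were all called in the GFP-positive lists of both replicates. A GFP-negative list held a peak at 1 of them, in replicate 1. None of the wide shared regions lay near them. The nearest was 1104 kb away on chromosome 15, and no region called in all 4 lists lay between the outer elements.

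The wide shared regions were mostly just above the width limit. Their median width was 1198 bp, the quartiles were 1078 and 1482 bp, and the widest was 17568 bp, against a median of 234 bp for the other shared regions. Together they covered 1245782 bp. Of the 849 regions, 251 were under 1100 bp, 96 were 2000 bp or more, 27 were 3000 bp or more and 11 were 5000 bp or more. The 3 narrowest members, each 1000 bp wide, were on chromosomes 5, 7 and 9, with folds of 24.5 to 64.8 in GFP-positive replicate 1. Just under the width limit, 3 shared regions of 999 bp lay on chromosomes 3, 4 and 5, with folds of 24.5 to 61.2 in that library.

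Width seldom came from a long peak in every list. A single peak of at least 1000 bp was present in 189 and 117 regions in GFP-positive replicates 1 and 2, and in 496 and 246 regions in GFP-negative replicates 1 and 2. Such a peak was found in all 4 lists in 80 regions, in at least 1 list in 575 and in no list in 274. In 254 regions it was found only in GFP-negative replicate 1, the library with the highest implied depth. Without that library 479 regions met the rule instead of 849. The label of wide openings shared by both populations therefore holds for the outline of a region and less for each library, and the regions are called here by the rule.

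The bases within a region that were called in all 4 lists, its core, show what the calls of the 4 lists had in common. Cores made up 59.1% of all bases of the wide regions, against 44.8% in the other shared regions, and 10.4% of bases were called in 1 list only. Per region the core had a median share of 55.6% (quartiles 40.5% and 69.4%), and it ranged from 0% to 99.8%. Of the 849 regions, 737 (86.8%) held at least 2 separate cores, 627 held 2 to 4 and 110 held 5 or more. Exactly 1 core was present in 110 regions, or 12.96% (95% exact binomial interval 10.8% to 15.4%, covering counting error over regions only). The median of the longest core was 387 bp, and only 70 regions had a core of 1000 bp or more. A wide shared region was thus most often a run of 2 to 4 short cores, joined by bases that were called in some of the lists.

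**Figure D1:**
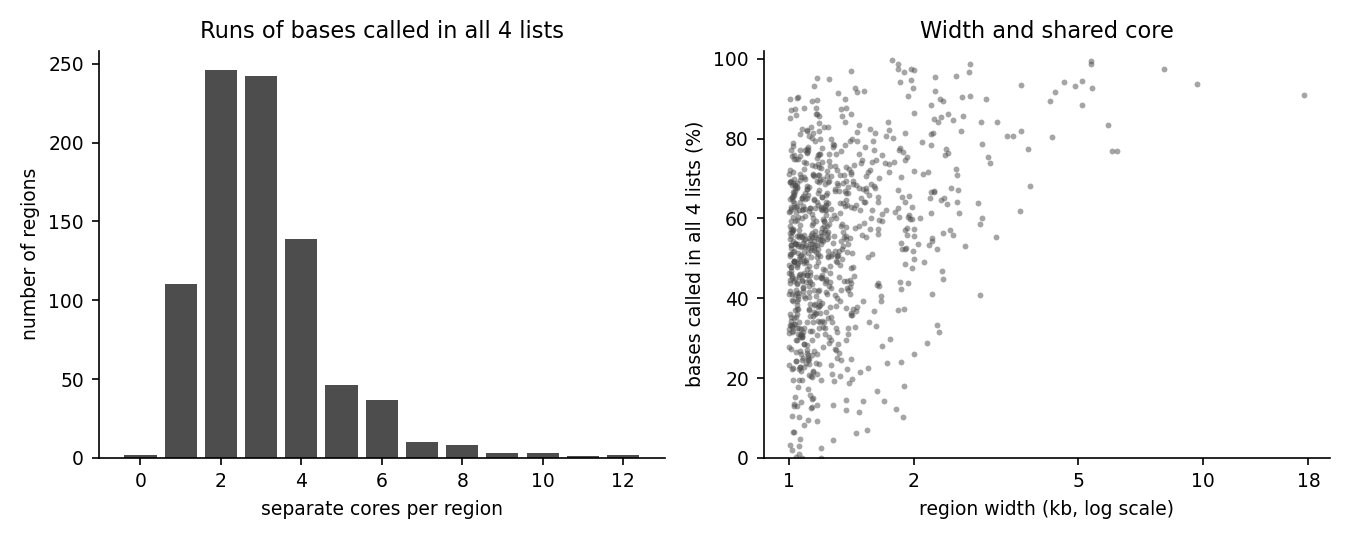
Left, number of the 849 wide shared regions (y axis) with each number of separate cores (x axis), a core being a run of bases called in all 4 lists. Right, region width in kb on a log axis (x) against the percent of its bases called in all 4 lists (y), 1 point per region. Regions with 2 or 3 cores are the most frequent, and the regions of 5000 bp or more all lie in the upper part of the right plot.

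By the medians of width classes, wider regions were also stronger and more completely shared. The median core share rose with width, from 49.4% in the 251 regions under 1100 bp to 67.1% in the 69 regions of 2000 to under 3000 bp and 84.2% in the 27 regions of 3000 bp or more. The median strength in the same classes was 26.01, 46.9 and 69.4 in GFP-positive replicate 1, and 32.2, 61.8 and 108.4 in GFP-negative replicate 1. Across the 849 regions width had a Spearman correlation of 0.26 with the mean log2 strength and 0.32 with the core share, given as a description since regions share the same libraries and the rule used the width. A core of 90% or more was found in 39 regions, with a median width of 1994 bp and median folds of 76.0 and 64.1 in the GFP-positive and 124 and 109 in the GFP-negative libraries. The other 810 regions had a median width of 1188 bp and median folds of 29.6, 25.7, 36.8 and 37.1 in the same order.

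The widest region was chr4:61288287-61305854 of danRer7, 17568 bp long near the far end of chromosome 4. GFP-negative replicate 1 held it as 1 peak over 99.9% of its width, and the other libraries covered 93.6% to 99.7% with 2 to 7 peaks. Its strength was 65.8 and 87.1 in the GFP-positive and 193 and 175 in the GFP-negative libraries, a log2 difference of -1.14 ± 0.20 (SE, n = 2 per group, limma adjusted p = 0.000518). The values of the 2 groups did not overlap. With quantile normalisation the log2 difference was smaller, at -0.67 (limma adjusted p = 0.0267). As the rule used width and strength, the adjusted p-values of the widest regions are a description.

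The next 2 in width did not show that difference. Region chr2:14491612-14501301, 9690 bp wide, was covered to between 97.0% and 99.6% in the 4 libraries. Its strength was 64.8 and 62.7 in GFP-positive and 58.4 and 59.2 in GFP-negative libraries. Region chr5:1195942-1203986, 8045 bp wide, was covered to between 97.7% and 99.7%, and its strength was 146 and 121 in GFP-positive and 124 and 113 in GFP-negative libraries. Neither passed the test (limma adjusted p = 0.467 and 0.316, log2 differences 0.26 ± 0.20 and 0.31 ± 0.18, SE, n = 2 per group). With quantile normalisation both passed as higher in GFP-positive cells (adjusted p = 0.0424 and 0.00728).

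The remaining 2 of the 5 widest were neighbours on chromosome 8, at 35909042 to 35915237 and at 35927475 to 35933497. They were 6196 and 6023 bp wide and were broken into 9 and 11 cores. In the first the strength was 38.2 and 33.2 in GFP-positive and 58.0 and 53.5 in GFP-negative libraries. In the second it was 66.8 and 48.7 against 97.1 and 84.1. Neither difference passed the test (limma adjusted p = 0.130 and 0.0865). The most broken regions, with 12 cores each, were chr7:56291465-56295295, which GFP-negative replicate 1 covered to 100% with 1 peak and GFP-positive replicate 2 to 75.3% with 9, and chr8:35467658-35470826, which no list held as 1 peak.

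**Figure D2:**
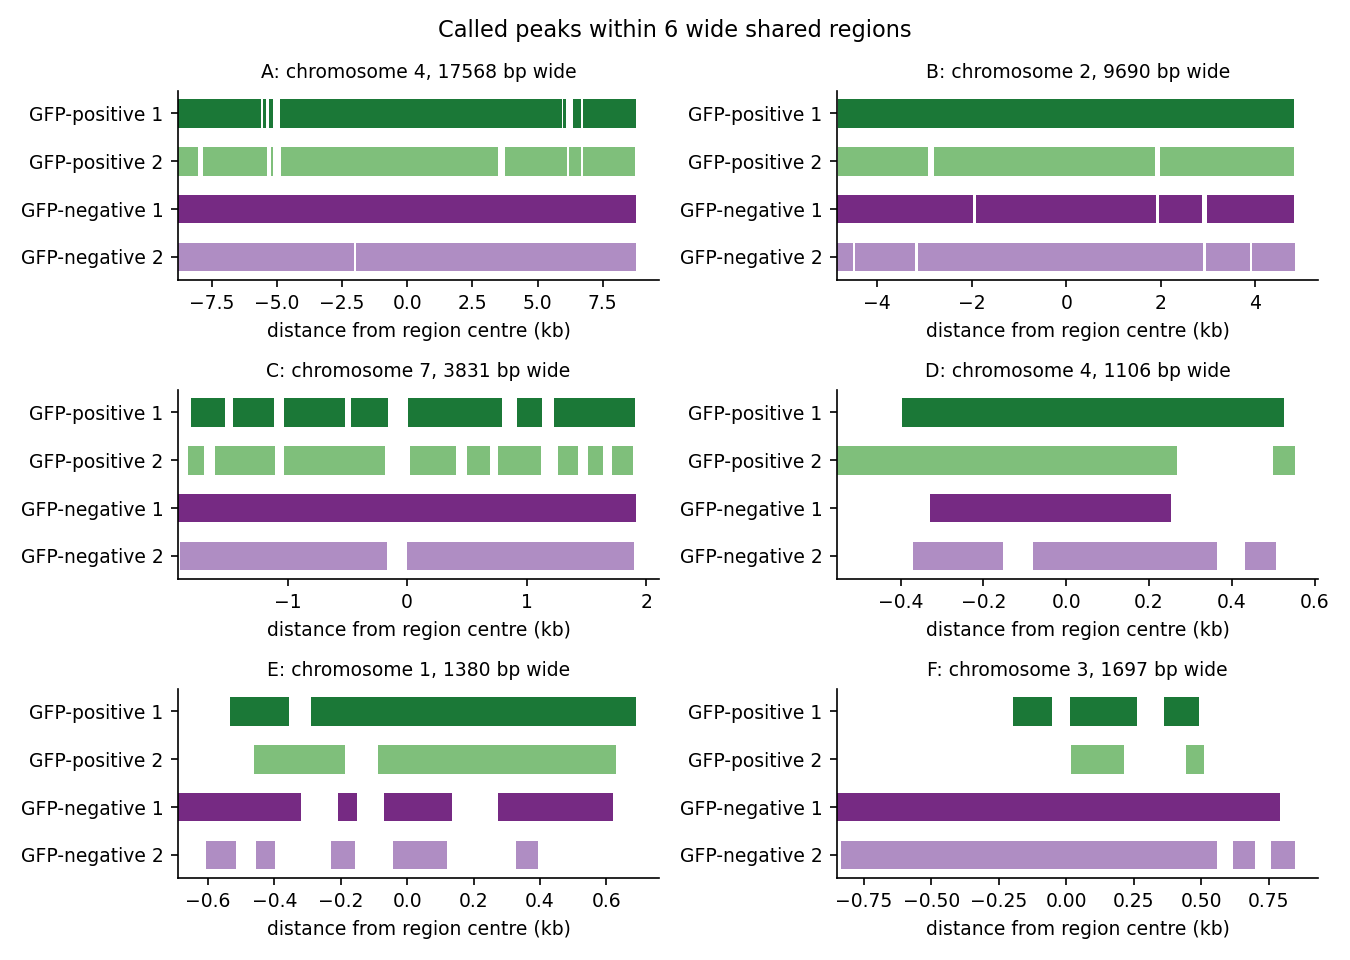
Called peaks (bars) in the 4 libraries (rows) of 6 wide shared regions, against the distance from the region's centre in kb (x axis); gaps are bases without a call. A and B are the 2 widest regions (17568 and 9690 bp), C is the wider of the 2 regions with 12 cores, D and E have the largest rise and F the largest fall in strength in GFP-positive cells. In F the GFP-positive libraries called 30.8% and 15.4% of the width and the GFP-negative libraries 96.8% and 92.3%.

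The wide shared regions ranked high in each library. The rule left out only regions among the strongest of every list, so a member could still be among the strongest of some lists. Their median strength was 31.1 and 26.7 in GFP-positive replicates 1 and 2 and 38.7 and 38.8 in GFP-negative replicates 1 and 2, against medians of 10.2, 8.43, 10.2 and 10.2 over all regions called in 4 lists. Read as stacked tags, the member medians are about 60, 56, 101 and 94 tags. The lowest member strength was 3.75 and the highest 216. In all 4 libraries 737 regions were above the median of the shared regions, and 10 were below it.

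To ask whether the same regions were open to a different degree in periderm and in the other cells, log2 strength was centred on the median of the shared regions in each library and tested with limma across all 110754 shared regions, 2 libraries against 2. Strength was higher in GFP-positive cells in 13 wide regions (2.80% of all shared regions were called in that direction) and lower in 199 (5.74% of all shared regions). The members' shares were 1.53% and 23.4%. The excess of lower calls is a description and no support for a difference particular to wide regions. The regions were chosen by width, and 254 of the 849 had a peak of 1000 bp or more only in GFP-negative replicate 1. The median log2 difference of the wide regions was -0.39, against -0.02 for all shared regions, and 663 of the 849 (78.1%) had a negative difference. Both GFP-positive values were below both GFP-negative values in 516 wide regions, and above them in 89, where 27.5% and 23.8% of all shared regions were so placed. By percentile rank among the shared regions the counts were 314 and 198, against 24.4% and 24.8% of all shared regions. The libraries came from 2 incrosses. Limma draws the spread between the 2 libraries of a group towards that of regions of like strength. The p-values and each SE given here rest on that shared spread, not on the spread within 1 region alone. Both GFP-negative libraries had the higher implied depth, so depth and population cannot be told apart here.

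Part of this shift went with the level of a region. With all shared regions sorted into 10 groups of equal size by their mean strength, the median difference went from 0.22 in the weakest group to -0.33 in the strongest, and the strongest group held 476 of the 849 wide regions. Within a level group the wide regions had a lower median than the other shared regions, in each of the 9 groups that held any. Their medians were -0.44 against -0.32 in the strongest group and -0.29 against -0.18 in the next. The groups with the fewest held 3 and 4 wide regions. This too is a description, since width chose the regions and peaks of 1000 bp or more were more frequent in them in the GFP-negative lists. With quantile normalisation, which gives the 4 libraries the same distribution of strengths, 28 wide regions were higher (1.88% of all shared regions) and 50 lower (2.15%) in GFP-positive cells, and the median difference of the wide regions was -0.11. All 13 regions called higher with median centring and 50 of the 199 called lower were called the same way with quantile normalisation. Leaving out either GFP-negative library left 0 calls in either direction by limma, with 19 and 203 wide regions higher and lower at an unadjusted p under 0.05 without replicate 1, and 20 and 237 without replicate 2.

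**Figure D3:**
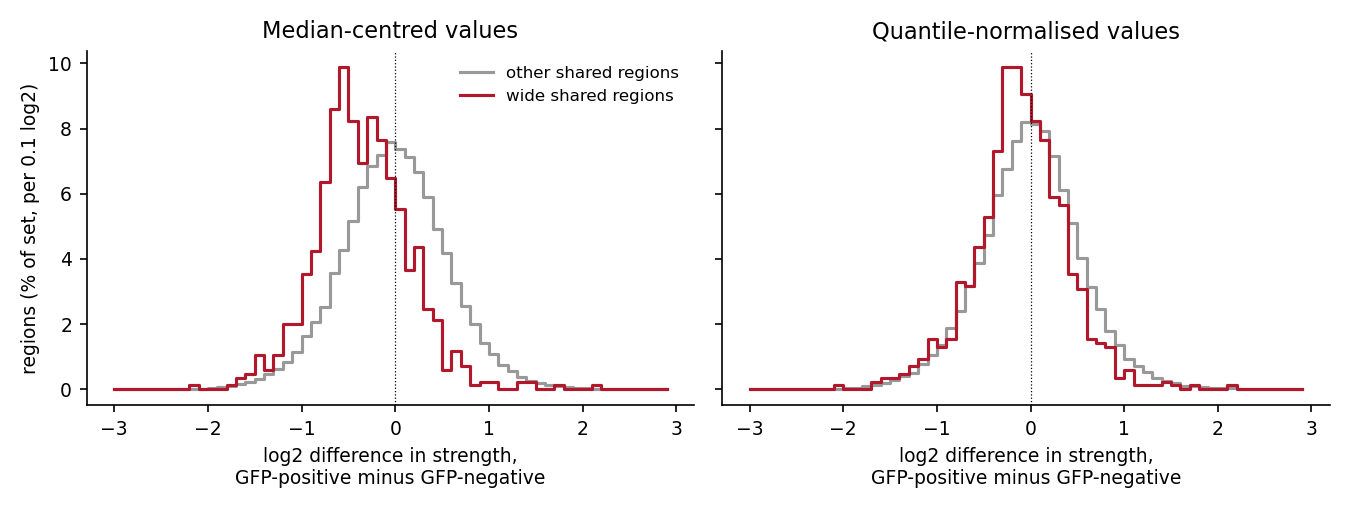
Distribution of the log2 difference in strength, GFP-positive minus GFP-negative (x axis, in steps of 0.1), as a percent of the wide shared regions (red) and of the other shared regions (grey), with median centring (left) and quantile normalisation (right). The red curve lies to the left of the grey one on the left (median -0.39) and closer to it on the right (median -0.11).

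The 6 largest rises in GFP-positive cells were all close to a chromosome end and between 1046 and 1506 bp wide. The largest was chr4:62033787-62034892, 0.0597 Mb from the last called base of chromosome 4, with strengths of 31.6 and 26.7 in GFP-positive and 6.45 and 8.57 in GFP-negative libraries. The difference was 2.11 ± 0.30 on the log2 scale (SE, n = 2 per group, limma adjusted p = 7.13e-05). Region chr1:60285084-60286463, 0.0618 Mb from the end, had strengths of 28.0 and 19.2 against 9.48 and 6.53 (log2 difference 1.70 ± 0.31, adjusted p = 0.000793). In both regions each GFP-positive value was more than each GFP-negative value. In the chromosome 1 region the GFP-negative libraries had 4 and 5 peaks and the GFP-positive libraries 2 each, as the map of called peaks shows.

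The other 4 rises showed the same order of values. On chromosome 10, 46573906 to 46574951 had strengths of 21.4 and 25.3 against 8.72 and 10.6, and lay 0.0154 Mb from the end. On chromosome 16, 77481 to 78557 had 32.1 and 26.2 against 13.3 and 11.8. On chromosome 6, 22172 to 23258 had 16.8 and 16.9 against 7.58 and 7.35, and 40343 to 41848 had 17.8 and 12.2 against 4.93 and 7.35. Their log2 differences were 1.41, 1.35, 1.31 and 1.43, with limma adjusted p from 0.00136 to 0.0117. In the rises on chromosomes 1, 4 and 10 both GFP-positive libraries covered more of the region than both GFP-negative ones. In those on chromosomes 6 and 16 the covered shares of the groups overlapped. The rule used width and strength, so the adjusted p-values of all the named rises are a description. Of all 13 regions called higher, 7 lay within 1 Mb of a chromosome end.

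The 6 largest falls were on 6 chromosomes, and the one nearest to a chromosome end was 3.49 Mb away from it. Region chr3:26906281-26907977 had strengths of 9.18 and 7.49 in GFP-positive and 40.6 and 38.8 in GFP-negative libraries, a log2 difference of -2.12 ± 0.27 (SE, n = 2 per group, limma adjusted p = 2.74e-05). Its 2 cores made up 14.3% of the 1697 bp, and 971 bp were called in both GFP-negative lists and neither GFP-positive list. Peaks covered 523 and 261 bp of it in GFP-positive and 1642 and 1567 bp in GFP-negative libraries. Region chr11:43175003-43176077 had 14.8 and 10.8 against 44.0 and 47.4 (log2 difference -1.71 ± 0.24, adjusted p = 7.98e-05).

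The other 4 falls were chr4:16138917-16139930 (4.08 and 6.09 against 18.6 and 16.7), chr24:10437344-10438427 (7.65 and 7.49 against 24.7 and 27.8), chr20:24806523-24807539 (6.63 and 5.15 against 21.2 and 19.2) and chr6:18107590-18108983 (11.2 and 6.09 against 27.3 and 27.8). Their log2 differences lay between -1.68 and -1.60, with limma adjusted p from 0.000748 to 0.00400. In each named fall the GFP-positive libraries covered less of the region than the GFP-negative ones. The width that chose these regions thus rested largely on GFP-negative calls, and their adjusted p-values are a description. All 12 named rises and falls also passed with quantile normalisation, and none passed when either GFP-negative library was left out or when percentile ranks were used. Without a GFP-positive library 10 of the 12 passed, whichever was left out.

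**Figure D4:**
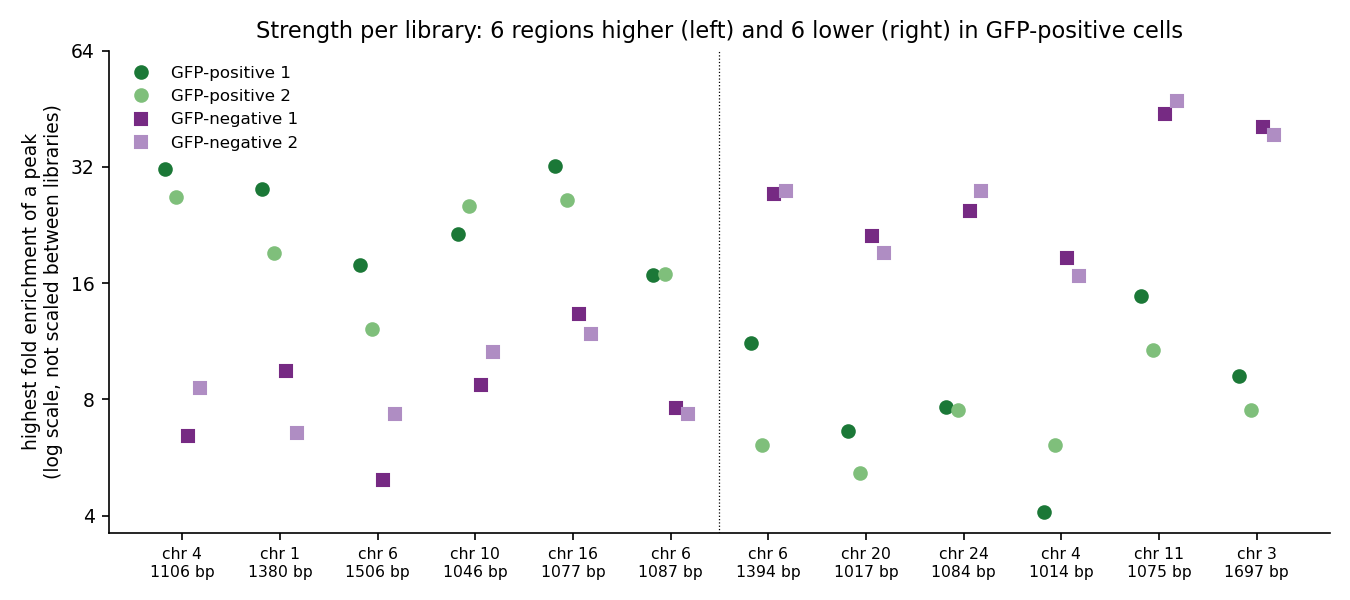
Strength (highest fold enrichment of a peak, log axis, not scaled between libraries) in the 4 libraries for the 6 regions of the largest rise (left of the dotted line) and the 6 of the largest fall (right) in GFP-positive cells, labelled by chromosome and width. Circles are GFP-positive and squares GFP-negative libraries; in each region the 2 groups do not overlap, by the choice of the regions.

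Called width was compared in the same way, as the bases of a region covered by peaks of a library. Libraries covered a median of 79.4% and 67.0% of a wide region in GFP-positive and 94.5% and 85.4% in GFP-negative cells. As the libraries differed in depth, the values were centred on each library's median before the test. No wide region passed with limma in either direction (0.00% of all shared regions), with 30 higher and 153 lower in GFP-positive cells at an unadjusted p under 0.05. Without GFP-positive replicate 1, 4 were called higher (0.166% of all shared regions) and 77 lower (1.66%). Without GFP-positive replicate 2, 1 was higher (0.00181% of all shared regions) and 11 were lower (0.158%). With all 4 libraries the median log2 difference was -0.02. The rule itself used width, and without a GFP-positive library that population rests on 1 list. The counts of this comparison are therefore a description.

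Some regions had large differences in called width that did not pass the test. The largest was at chr13:53853555-53854610, of which the GFP-positive libraries covered 12.5% and 5.02% and the GFP-negative libraries 82.5% and 48.7%. Region chr13:24874087-24875280 was covered to 13.4% and 8.29% against 93.2% and 70.8%, and no base of it was called in all 4 lists. In the other direction, chr10:46571952-46573767 was covered to 93.9% and 67.4% in GFP-positive and 42.5% and 28.5% in GFP-negative libraries. It lies next to the region of chromosome 10 named above for its rise in strength. These 3 had a limma adjusted p of 0.111. Region chr4:16138917-16139930, named above for its fall in strength, was covered to 5.42% and 31.4% against 91.1% and 69.9% (limma adjusted p = 0.284). Covered more in GFP-positive libraries was chr1:593848-594901, with 93.0% and 76.4% against 47.4% and 32.3% (limma adjusted p = 0.111). So was chr7:4434671-4435986, with 100% and 57.6% against 34.0% and 51.9% (limma adjusted p = 0.204). The rule itself used width, so such differences are a description. The 2 regions of chromosome 13 reached 1000 bp mainly through GFP-negative calls, with no GFP-positive peak longer than 105 bp. The region of chromosome 10 held a peak of 1008 bp in GFP-positive replicate 1.

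Bases called in both lists of 1 population and in neither list of the other give the parts of a wide region whose calls the populations did not share. GFP-negative-only bases made up 7.67% of the wide regions (95510 bp) and GFP-positive-only bases 0.751% (9362 bp), against 6.86% and 1.67% in the other shared regions. These shares depend on each list used. Leaving out GFP-positive replicate 1 gave a GFP-negative-only share of 18.4%, and leaving out GFP-negative replicate 2 gave 14.2%. The GFP-positive-only share was 1.18% and 2.43% with GFP-positive replicate 1 or 2 left out, and 3.23% and 1.66% with GFP-negative replicate 1 or 2 left out. At least 100 such bases were present in 364 wide regions (42.9%) for GFP-negative and in 28 (3.30%) for GFP-positive cells, against 4.50% and 0.545% of the other shared regions, which were far narrower. Of the GFP-negative-only bases, 51.8% lay at the edges of a region, outside its outermost cores. The GFP-negative lists were the longer ones on average, so list length and population cannot be told apart in these shares. More wide regions held a peak of 1000 bp or more in each GFP-negative list than in either GFP-positive list. How far the width rule shaped the GFP-negative-only shares was not tested, and they are a description. With 2 libraries against 2 an exact permutation test cannot go below p = 0.33.

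The wide shared regions were unevenly placed along the genome. They were found on all 25 chromosomes, from 19 on chromosome 25 to 76 on chromosome 8. Relative to the shared regions of a chromosome, chromosomes 8 and 18 had the most, with 16.4 and 12.7 per 1000, and chromosome 9 the fewest, with 4.67 per 1000. Of the wide regions, 22.0% (187) lay within 1 Mb of the first position or the last called base of a chromosome, against 7.03% of all shared regions. The far end of a chromosome was taken as its last called base throughout.

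Regions near chromosome ends differed from the rest in the comparison of the populations. The median log2 difference was -0.17 for the 187 wide regions near an end and -0.44 for the 662 elsewhere. Of the former, 9.63% were called lower in GFP-positive cells, against 27.3% of the latter. The shares called higher were 3.74% and 0.906%. Among the other shared regions 4.03% near an end and 5.72% elsewhere were called lower, and 2.95% and 2.80% higher. With quantile normalisation the shares of the wide regions were 1.60% and 7.10% lower, and 6.42% and 2.42% higher. The difference between ends and elsewhere was not tested. The median folds near an end were 28.6, 25.7, 30.0 and 30.2, and elsewhere 32.1, 27.2, 41.3 and 40.4, in GFP-positive replicates 1 and 2 and GFP-negative replicates 1 and 2. The median strength near an end was thus lower mainly in the GFP-negative libraries. The part of this level difference in the calls was not tested.

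**Figure D5:**
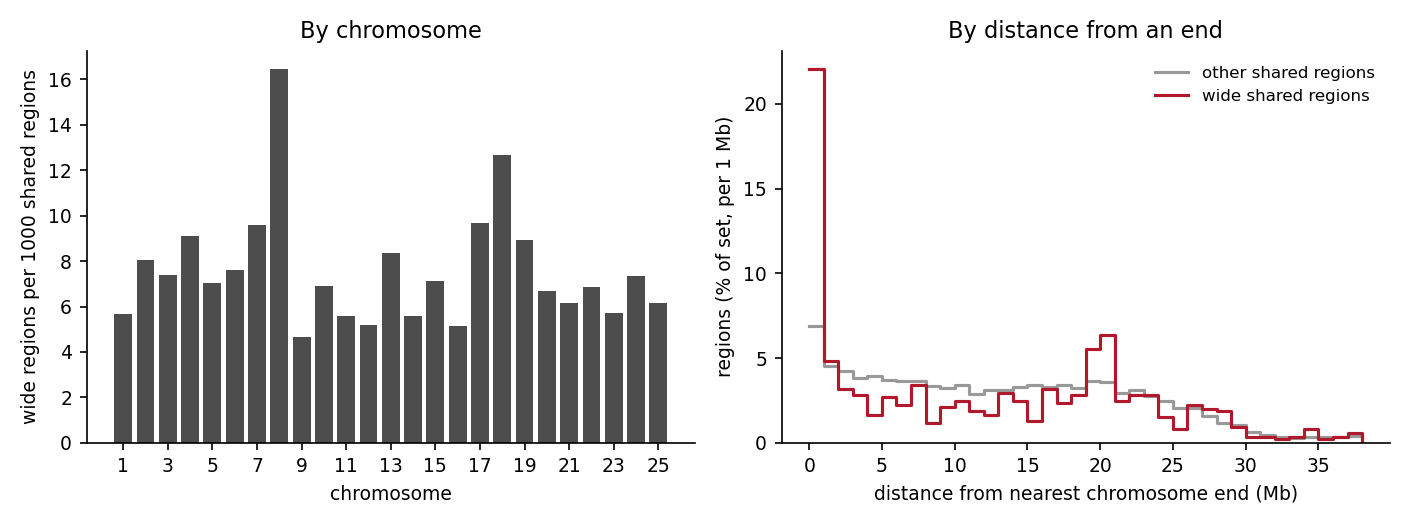
Left, wide shared regions per 1000 shared regions (y axis) on each chromosome (x axis). Right, distance from the nearest chromosome end in Mb (x axis) as a percent of the wide shared regions (red) and of the other shared regions (grey), in steps of 1 Mb. Chromosome 8 stands highest on the left with 16.4 per 1000, and on the right 22.0% of the wide regions fall in the first step.

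Some wide regions lay near each other. Another one was found within 10 kb of 256 of them, or 30.2%. Of all shared regions, which are far more numerous, 84.6% had another shared region within 10 kb. Whether the wide regions lay closer together than their number alone would give was not tested. Grouped at that distance, 593 lay alone, 50 groups held 2, and the largest group held 11. That group spanned chr18:10994-52046, and its regions were 1011 to 2466 bp wide. The log2 difference ranged from -0.85 to 0.46 within it, with 7 of 11 below 0 and 2 called lower.

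Other groups, chosen after their values were seen, were more uniform. The 9 regions of chr17:46611505-46656887 all had a negative difference (median -0.61), and 5 were called lower in GFP-positive cells. Their median strength was 58.1 and 49.2 in GFP-positive and 104 and 82.0 in GFP-negative libraries. All 5 regions of chr3:26906281-26921179, which includes the largest fall, were called lower, with median strengths of 7.65 and 7.49 against 18.6 and 18.4 (limma adjusted p from 2.74e-05 to 0.0465). With quantile normalisation 2 of those 5 passed. In each of the 5 the GFP-positive libraries covered fewer bases than the GFP-negative ones, so these calls are a description.

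The 1 Mb window with the most wide regions, also chosen after its values were seen, was on chromosome 8 from 35000001 to 36000000. It held 36, which is 18.8% of its 192 shared regions, against a mean of 0.620 per window. They were wider and more broken than the rest, with a median width of 2022 bp and a median of 6 cores. Their median strength was 21.7 and 14.5 in GFP-positive and 19.1 and 16.7 in GFP-negative libraries. The medians of all wide regions were higher, at 31.1 and 26.7 in GFP-positive and 38.7 and 38.8 in GFP-negative libraries. Within the window the median log2 difference was -0.05, and 1 region was called lower. The regions of 6196 and 6023 bp and 1 of the 2 with 12 cores lie in this window. The adjoining window, from 36000001 to 37000000, held 8 wide regions, or 18.2% of its 44 shared regions. Their median width was 2734.5 bp with a median of 2 cores, and 5 were called lower.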

How the data were processed

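Per the methods of the study, reads were trimmed by the authors, mapped to danRer7 by Bowtie 2 and cleared of duplicates by SAMtools. They then kept fragments under 100 bp and called peaks in each library with MACS2 2.1.1 without a local background. The submitters' processing notes name danRer10, but peaks reach 60348296 on chromosome 1, past the end of that chromosome in danRer10. The unnamed column deposited with each peak was read as a fold, a ratio to the library's constant background that the authors took from the peak caller, since 100% of the values below 60 in a list were multiples of a single step, with a tolerance of 0.02 steps. It was not scaled between libraries.

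The members, the gene-free rules for named regions and the tests were chosen with earlier results of these data known. Named were the 5 widest regions, the 6 largest rises and falls in strength that passed the test without overlap, the 3 of largest difference in called width per direction, the 3 of most cores, those next to the width limit, the largest group within 10 kb and the region nearest to the cldne elements. Groups and replicate numbers came from the labels. Strength and called width were tested with limma 3.58.1 (R 4.3.3, variance trend, Benjamini-Hochberg over all 110754 shared regions, threshold 0.05), where DiffBind, used by the study, would need reads. Positions are counted from 1. No reads were used, so a base without a call is not a base without signal. Scripts were tested on simulated data. Other software was Python 3.11.15 with scipy 1.17.1, pandas 2.3.3, numpy 2.4.6 and, for plots, matplotlib 3.10.9.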

Additional observations from a re-analysis of the deposited data

How the results depend on the processing

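With a width minimum of 800 bp 2083 regions met the rule, with 1200 bp 423, and without each library in turn 479 to 812, the lowest without GFP-negative replicate 1. An overlap of 50%, equal numbers of peaks, the upper 50% of each list and leaving out none or 2000 of the strongest peaks kept the count within 1.5 times. Regions higher and lower in strength in GFP-positive cells numbered 28 and 50 with quantile normalisation, 0 and 0 by percentile rank, where 76 and 146 had an unadjusted p under 0.05, and 6 and 30 without a variance trend. Without each library in turn they numbered 0 to 8 and 0 to 179, with 0 for both directions without either GFP-negative library. With the replicate block they numbered 15 and 237 for strength and 0 and 0 for called width. Over all 110754 shared regions the strength counts were 4105 and 7801 with the block, and 1557 and 1873 without a variance trend. Counts at an unadjusted p were made for the wide regions only. Deviations of libraries with the same number had correlations of 0.0052 (strength) and 0.035 (called width) over the shared regions, and 0.083 and 0.21 over the wide ones. With only 2 pairs, and no label that ties a number to an incross, the numbers were not taken as pairs. Regions called higher and lower in called width numbered 0 to 4 and 0 to 77 without each library. The share of regions with 1 core was 16.02% with cores under 50 bp left out and 10.5% to 13.5% without each library. GFP-positive-only bases made up 1.18% to 3.23% and GFP-negative-only bases 10.5% to 18.4% without each library, where 1 population rests on 1 list. Another wide region lay within 5 kb of 23.4% and within 50 kb of 42.9% of the regions, and within 10 kb of 27.6% without the window of chromosome 8, an alternative chosen after seeing the data. The differences of the 12 named rises and falls kept their direction under every alternative run. For the runs without 1 library this followed from choosing regions without overlap between the groups. The replicate block and the fit without a variance trend leave the difference itself unchanged. The kept direction is thus no support in those runs. No reads were used, so the depth at a base without a call is unknown.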
